A study of Eucalyptus urophylla with 24 samples.

Results

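The genes described here are the enzymes of the methionine and methyl cycle in buds and leaves of *Eucalyptus urophylla*, a tropical timber tree. They were chosen by the gene description: any description naming 5-methyltetrahydropteroyltriglutamate (methionine synthase), S-adenosylmethionine synthase or adenosylhomocysteinase, and 12 of the 26033 genes in the table matched. These were 8 methionine synthases, 1 S-adenosylmethionine (SAM) synthase and 3 S-adenosylhomocysteine (SAH) hydrolases. One of them, the methionine synthase Eucgr.A02126, had drawn attention because it was about 10.7-fold higher in triploid than in diploid terminal buds. Its level in buds is therefore a description here, with no test, as is every stage change of this gene that starts from buds. All 12 genes carry the GO term of their enzyme activity.

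RNA was sequenced from a triploid of the species, which had arisen through sexual polyploidization, and from its diploid control. Terminal buds, young leaves (labelled juvenile), mature leaves and senescent leaves were sampled, with 3 libraries for each of the 8 groups. The labels do not say whether a group's libraries came from different trees or clones, and a p-value here speaks only of how far those libraries spread, which may be technical. One code in the titles covers every triploid library and another every diploid one, and any effect of ploidy and any other effect of the plants sampled cannot be told apart. Levels are given as FPKM, fragments counted relative to transcript length and to the mapped total of the library, and counts of reads were used where a gene was near 0.

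Methionine synthase passes a methyl group from methyltetrahydrofolate to homocysteine, which makes methionine. SAM synthase joins methionine to the adenosyl group of ATP, and SAM then gives its methyl group to lignin precursors, chlorophyll, lipids, DNA and many other acceptors. The SAH that remains inhibits methyltransferases, and SAH hydrolase splits it into homocysteine and adenosine, which closes the cycle. Tissues that make much lignin, wall polymer or membrane lipid are known for a high demand on it.

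Total counts were 38395755 to 64400745 reads per library. The 3 cell division markers (histone H4, cyclin-B1-3 and a calcyclin-binding protein caught by its description) summed to 254 to 272 FPKM in triploid buds, against 310 to 334 FPKM in diploid buds. In mature leaves the sums were 25.0 to 30.8 FPKM in the triploid, against 61.1 to 69.2 FPKM in the diploid. Senescent leaves had 28.8 to 38.1 FPKM, against 66.6 to 76.3 FPKM. The largest part of the bud sums was Eucgr.J01149, at 176 against 256 FPKM. Of the 3, 1 was called higher and 2 lower in triploid buds. In mature and in senescent leaves of the triploid 2 were called lower and 0 higher. Of all genes 14% were called higher and 34.9% lower in triploid buds. The shares were 42.4% and 22.6% in mature leaves, and 40.1% and 20% in senescent leaves. The 13 senescence markers summed to 7611 to 7921 FPKM in triploid senescent leaves, against 29572 to 33170 FPKM in diploid ones, and to 310 to 322 FPKM in triploid mature leaves, against 1386 to 1535 FPKM in diploid ones. A single gene, the protease SAG12 Eucgr.D00494, carried these differences, with means of 5339 and 182 FPKM in triploid senescent and mature leaves, against 28745 and 1338 FPKM in diploid ones. The list itself did not move one way: of 6 tested, 2 were higher and 3 lower in triploid senescent leaves, and 2 higher and 2 lower in mature leaves. In senescent leaves the 17 photosynthesis markers summed to 2732 to 3017 FPKM in the triploid, against 4481 to 4872 FPKM in the diploid. The 53 secondary wall genes summed to 984 to 1110 FPKM in triploid buds, against 1519 to 1532 FPKM in diploid buds. That sum leaned on the laccase Eucgr.F02649, at 254 against 477 FPKM. Of 42 tested, 6 were higher and 13 lower (7 and 10 after scaling), and their median difference of −0.11 was above that of all genes (−0.18). The part of these markers in the results below was not tested, and fewer cells of a type and less RNA per cell cannot be told apart. A shift shared by most genes also lay under the FPKM values: over 11530 genes the triploid was lower by a log2 of 0.20 in buds (−0.20), higher by 0.36 in mature leaves and by 0.33 in senescent leaves, and within 0.01 in young leaves. Values after removing this shift are named "after scaling". The libraries farthest from their own groups were bud library 3 and young leaf libraries 1 and 3, all diploid.

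The members spanned a wide range of levels. Averaged over the 24 libraries, the SAH hydrolase Eucgr.H02678 (chromosome 8, 36418279 to 36420995, minus strand) was the most abundant at 517 FPKM, and ranked 145 among all genes in the table. The methionine synthases Eucgr.K01508 (chromosome 11, 18441355 to 18447061, minus strand) and Eucgr.A02126 (chromosome 1, 36630355 to 36639222, minus strand) averaged 203 and 167 FPKM. The SAH hydrolase Eucgr.D00281 (chromosome 4, 4728127 to 4731117, minus strand) averaged 120 FPKM, and the SAM synthase Eucgr.A01021 (chromosome 1, 30292999 to 30295945, minus strand) 60.0 FPKM. A pair of methionine synthases side by side on chromosome 10, Eucgr.J00612 (6823867 to 6829101) and Eucgr.J00613 (6833964 to 6838074), averaged 20.5 and 8.70 FPKM. The other 5 members averaged 1.46 FPKM or less. Coordinates are those of the deposited table, whose identifiers are of the *E. grandis* genome. Of the 12 members 8 passed the filter of a mean of 0.5 FPKM, and 1 of these, Eucgr.L02766, passed only through the diploid.

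Eucgr.A02126 had 675, 566 and 672 FPKM in the 3 triploid bud libraries, against 40.5, 43.6 and 95.6 FPKM in the diploid bud libraries. The groups lay far apart, and diploid library 3 was above the other 2 diploid libraries. In young leaves the order was the other way round by mean and the groups overlapped, with 234, 173 and 156 FPKM in the triploid, against 259, 385 and 180 FPKM in the diploid (log2 difference −0.50 ± 0.26 SE, adjusted p = 0.17 with limma, n = 3). Without diploid young leaf library 3 this difference was −0.77 and its adjusted p 0.035. Mature leaves held 46.0, 51.8 and 37.0 FPKM in the triploid, against 52.5, 38.6 and 53.3 FPKM in the diploid, also overlapping (−0.09 ± 0.26, adjusted p = 0.77 with limma). In senescent leaves the triploid libraries at 55.7, 53.4 and 50.7 FPKM all lay above the diploid ones at 35.3, 34.8 and 28.98 FPKM (0.68 ± 0.26, adjusted p = 0.028 with limma). That call was lost after scaling (0.36, adjusted p = 0.23), with edgeR on the counts (adjusted p = 0.41) and when triploid library 1, triploid library 2 or diploid library 3 was left out (adjusted p 0.072, 0.059 and 0.095).

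From triploid buds the level of Eucgr.A02126 thus ran down to mature leaves. The triploid group means were 638, 187 and 44.9 FPKM, then 53.3 FPKM in senescent leaves. The diploid means were 59.9, 275, 48.1 and 33.0 FPKM, with the peak in young leaves. Ordered by level, triploid buds stood apart at the top, diploid and triploid young leaves followed with overlapping ranges, and from diploid buds down to triploid mature leaves each group overlapped with the next. Diploid senescent leaves were lowest and overlapped with no triploid group. Of the steps without buds, the one from young to mature leaves was called in both ploidies: mature minus young leaves gave a log2 of −2.03 ± 0.26 in the triploid and −2.44 ± 0.26 in the diploid (adjusted p = 3.8e-07 and 2.1e-08 with limma). The difference between these changes was 0.41 ± 0.37 (adjusted p = 0.36). From mature to senescent leaves the change was called in neither ploidy in the main fit. The diploid fall was called after scaling (−0.59, adjusted p = 0.047 with limma) and with only its groups fitted (−0.52, adjusted p = 0.022). The difference between ploidies in this step, 0.77, was not called in the main fit. It was called with only the compared groups fitted (adjusted p = 0.013 with limma).

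**Figure D1:**
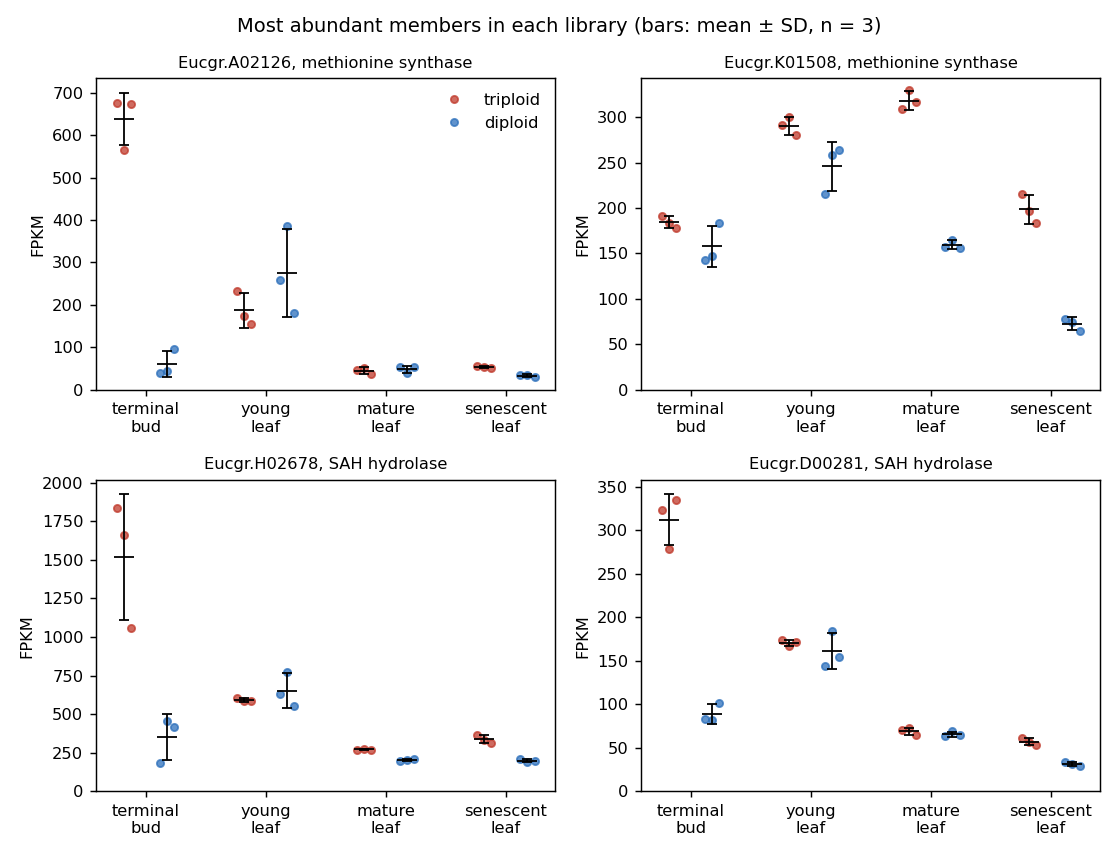
FPKM of Eucgr.A02126, Eucgr.K01508, Eucgr.H02678 and Eucgr.D00281 in each library, by stage, with triploid libraries in red and diploid libraries in blue; black bars are the mean and SD of 3 libraries. Eucgr.A02126 and both SAH hydrolases reach their highest means in triploid buds (638, 1520 and 313 FPKM), while Eucgr.K01508 is highest in triploid mature leaves (318 FPKM).

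Both abundant SAH hydrolases, which the choice of Eucgr.A02126 did not use, were also higher in triploid buds. Eucgr.H02678 had 1838, 1662 and 1059 FPKM in triploid buds, against 184, 457 and 418 FPKM in diploid buds. All 3 triploid libraries were above all diploid ones, although both groups were wide, with triploid library 3 and diploid library 1 as their low libraries. The log2 difference was 2.17 ± 0.23 SE (adjusted p = 1.1e-07 with limma, n = 3), a 4.31-fold ratio of the means. Eucgr.D00281 had 324, 279 and 335 FPKM in triploid buds, against 82.9, 81.6 and 102 FPKM in diploid buds, with little spread in either group. Its difference was 1.81 ± 0.10 (adjusted p = 6.6e-12 with limma), or 3.52-fold. Over the 19174 genes tested the median difference in buds was −0.18.

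In young leaves the SAH hydrolases of both ploidies overlapped. Eucgr.H02678 had 604, 584 and 588 FPKM in the triploid, against 628, 774 and 555 FPKM in the diploid (−0.13 ± 0.23, adjusted p = 0.74 with limma). Eucgr.D00281 had 174, 167 and 172 FPKM, against 144, 184 and 154 FPKM (0.09 ± 0.10, adjusted p = 0.55 with limma). In mature leaves Eucgr.D00281 had 70.5, 72.4 and 64.7 FPKM in the triploid, against 63.2, 69.2 and 64.8 FPKM in the diploid (0.07 ± 0.10, adjusted p = 0.54 with limma), and after scaling it was lower in the triploid (−0.28, adjusted p = 0.011). Eucgr.H02678 in mature leaves had 271, 277 and 267 FPKM, against 198, 205 and 213 FPKM, groups that did not overlap, and the difference was not called (0.40 ± 0.23, adjusted p = 0.13 with limma, whose spread is shared with the wide bud groups). Fitted on the mature leaf groups alone its adjusted p was 0.00031, without diploid bud library 1 it was 0.018, and after scaling the difference was 0.05.

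In senescent leaves both SAH hydrolases were higher in the triploid. Eucgr.D00281 had 61.3, 56.4 and 53.3 FPKM, against 33.4, 31.3 and 29.7 FPKM in the diploid (0.84 ± 0.10, adjusted p = 3.2e-07 with limma; 0.52 after scaling, adjusted p = 5.5e-05). Eucgr.H02678 had 368, 336 and 316 FPKM, against 210, 189 and 199 FPKM in the diploid (0.76 ± 0.23, adjusted p = 0.0064 with limma), a call that was lost after scaling (0.44, adjusted p = 0.11) and with edgeR (adjusted p = 0.47). SAG12 and the sum of the cell division markers were lower in these triploid leaves, as given above, and their part in this result was not tested. The share of Eucgr.H02678 in the summed SAH hydrolase FPKM was similar throughout, at group means of 75.7 to 86.4%. The third SAH hydrolase, Eucgr.H03180 (chromosome 8, 45382322 to 45384050, plus strand), had 31 reads in all over 5 of the 12 triploid libraries and none in the 10 diploid libraries with counts.

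Eucgr.K01508, the most abundant methionine synthase on average, followed another course. Buds of the triploid had 191, 183 and 178 FPKM, against 143, 148 and 184 FPKM in diploid buds, where library 3 reached into the triploid range (0.23 ± 0.10, adjusted p = 0.057 with limma). The difference was called after scaling (0.43, adjusted p = 0.00019) and without diploid bud library 3 (0.34, adjusted p = 0.0038). Young leaves had 291, 300 and 280 FPKM in the triploid, against 215, 259 and 264 FPKM in the diploid (0.24 ± 0.10, adjusted p = 0.075 with limma; 0.042 after scaling). In young leaves the groups did not overlap, although by a narrow margin. In older leaves the differences were larger. Eucgr.K01508 had 309, 329 and 316 FPKM in triploid mature leaves, against 157, 165 and 156 FPKM in diploid ones (0.99 ± 0.10, adjusted p = 2.4e-08 with limma). It had 215, 197 and 184 FPKM in triploid senescent leaves, against 78.3, 74.4 and 64.6 FPKM in diploid ones (1.44 ± 0.10, adjusted p = 5.2e-11 with limma). After scaling these differences were 0.64 and 1.12, both still called.

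The most abundant methionine synthase differed with stage, and between ploidies in buds, where the values behind the choice of Eucgr.A02126 lie. Over the 8 copies the summed level in buds was 847 ± 63.8 FPKM in the triploid and 247 ± 54.8 FPKM in the diploid (SD, n = 3 each). Eucgr.A02126 made up 75.2 ± 1.9% of it in triploid buds and 23.2 ± 6.5% in diploid buds, where Eucgr.K01508 held 64.5 ± 4.7%. In young leaves the sums were 505 ± 45.0 FPKM in the triploid and 546 ± 109 FPKM in the diploid, and Eucgr.A02126 held 36.8 ± 4.8% and 49.3 ± 10.0%. Eucgr.K01508 held 57.7 ± 4.3% and 46.0 ± 8.9% there. The larger copy changed between the diploid libraries, with Eucgr.A02126 at 52.5, 57.3 and 38.1% and Eucgr.K01508 at 43.6, 38.5 and 55.8%. In mature leaves Eucgr.K01508 held 79.8 ± 1.1% of 399 ± 16.3 FPKM in the triploid, and 69.9 ± 3.1% of 228 ± 3.5 FPKM in the diploid. Senescent leaves had 302 ± 20.7 FPKM in the triploid, 65.8 ± 1.0% of it from Eucgr.K01508, and 139 ± 10.9 FPKM in the diploid, 52.0 ± 1.1% from that copy. These sums hold the values behind the choice of Eucgr.A02126 and were not tested.

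**Figure D2:**
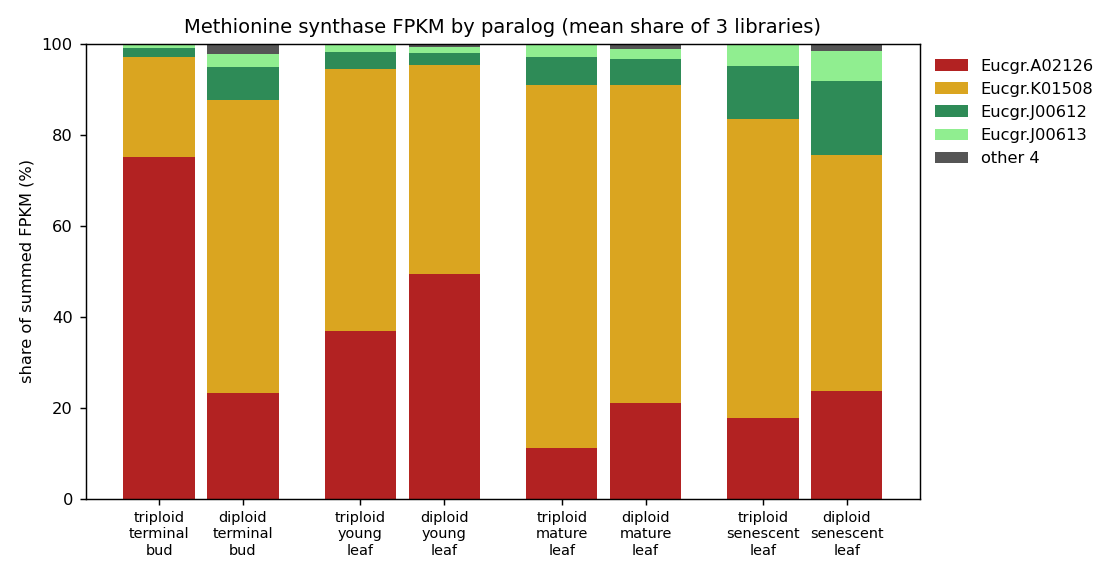
Share of the summed FPKM of the 8 methionine synthases held by each copy, in percent, as the mean over the 3 libraries of a group, with the triploid bar left of the diploid bar at each stage. Eucgr.A02126 holds 75.2% in triploid buds and 23.2% in diploid buds, and Eucgr.K01508 is the largest share in mature and senescent leaves of both ploidies.

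The chromosome 10 pair had its highest levels in triploid senescent leaves and was higher in the triploid in mature and senescent leaves. Eucgr.J00612 had 18.7, 18.2 and 17.4 FPKM in triploid buds, against 16.3, 17.3 and 18.3 FPKM in diploid buds, groups that overlapped (0.06 ± 0.10, adjusted p = 0.66 with limma); after scaling the difference was called (0.25, adjusted p = 0.027). In mature leaves it had 22.9, 24.3 and 26.0 FPKM in the triploid, against 13.9, 13.5 and 12.1 FPKM in the diploid (0.84 ± 0.10, adjusted p = 4.2e-07 with limma). Senescent leaves reached 36.7, 35.8 and 32.8 FPKM in the triploid, against 23.1, 22.3 and 21.9 FPKM in the diploid (0.62 ± 0.10, adjusted p = 2.2e-05 with limma). Its neighbour Eucgr.J00613 had 10.3, 12.0 and 11.2 FPKM in triploid mature leaves, against 6.22, 5.23 and 4.36 FPKM in diploid ones (0.96 ± 0.12, adjusted p = 5.5e-07 with limma), and 14.2, 16.6 and 13.5 FPKM in triploid senescent leaves, against 9.12, 9.16 and 9.12 FPKM in diploid ones (0.63 ± 0.12, adjusted p = 0.0001 with limma). After scaling the mature leaf differences were 0.51 and 0.66, and the senescent leaf ones 0.31 and 0.33, all called. With edgeR on the counts, where senescent leaves have 1 diploid library, the senescent leaf differences were not called (adjusted p 0.17 and 0.28).

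Young leaf differences of the pair were small and rested on few libraries. Eucgr.J00612 had 18.3, 19.5 and 18.1 FPKM in the triploid, against 11.8, 16.2 and 17.0 FPKM in the diploid (0.31 ± 0.10, adjusted p = 0.031 with limma). The call was lost without any 1 of the 3 triploid young leaf libraries (adjusted p 0.063, 0.11 and 0.055) and without diploid library 1 (0.16, adjusted p = 0.21). Eucgr.J00613 had 8.64, 10.1 and 8.33 FPKM, against 5.47, 6.74 and 7.75 FPKM (0.40 ± 0.12, adjusted p = 0.020 with limma), and its call was lost without triploid library 2 or diploid library 1 (adjusted p 0.11 each). How the authors' counting split reads between such copies was not stated, and the sequences of the copies were not compared here, so the levels of neighbouring copies are uncertain where they share sequence. Over the 8 group means the pair correlated at r = 0.968, whereas Eucgr.A02126 correlated with Eucgr.J00612 at −0.338 and with Eucgr.K01508 at 0.378.

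Among the abundant members, the SAM synthase Eucgr.A01021 alone was called lower in triploid mature leaves before scaling. It had 56.3, 58.0 and 50.4 FPKM in triploid mature leaves, against 110, 128 and 129 FPKM in diploid ones (−1.14 ± 0.15, adjusted p = 9.2e-07 with limma; −1.49 after scaling). Diploid mature leaves were its highest group and stood apart from all others. In buds it had 76.8, 67.9 and 65.1 FPKM in the triploid, against 55.2, 55.8 and 42.1 FPKM in the diploid (0.46 ± 0.15, adjusted p = 0.014 with limma), a call that was lost without triploid library 1 (0.39, adjusted p = 0.066) or diploid library 3 (0.33, adjusted p = 0.085). Young leaves had 68.4, 64.7 and 63.2 FPKM, against 59.6, 53.5 and 43.4 FPKM (0.33 ± 0.15, adjusted p = 0.11 with limma). Senescent leaves overlapped, with 35.9, 25.5 and 29.9 FPKM in the triploid, against 37.1, 39.6 and 26.4 FPKM in the diploid (−0.16 ± 0.15, adjusted p = 0.36 with limma), although after scaling they were called lower (−0.48, adjusted p = 0.017).

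The rule by description missed other genes that the table annotates with the same activities. There were 5, found after the values were seen, and all are described as hypothetical proteins. Eucgr.H04112 (chromosome 8) and Eucgr.K00588 (chromosome 11) carry the term methionine adenosyltransferase activity, the activity of SAM synthase, and averaged 170 and 91.2 FPKM, both above Eucgr.A01021. Eucgr.K00588 had 355, 316 and 359 FPKM in triploid buds, against 79.0, 74.3 and 89.8 FPKM in diploid buds (2.07 ± 0.11, adjusted p = 4.5e-12 with limma), and in young leaves 104, 101 and 109 FPKM, against 128, 152 and 100 FPKM. Of these SAM synthases by description or GO term it had the largest difference in buds. Eucgr.H04112 had 218, 241 and 219 FPKM in triploid buds, against 268, 271 and 244 FPKM in diploid buds (−0.21 ± 0.07, adjusted p = 0.019 with limma; −0.01 after scaling). In mature leaves Eucgr.H04112 averaged 70.6 FPKM in the triploid and 83.5 FPKM in the diploid, and Eucgr.K00588 23.6 and 21.2 FPKM. Senescent leaves of the triploid were higher for both, unlike for Eucgr.A01021. Eucgr.H04112 averaged 116 FPKM there against 60.9 FPKM, and Eucgr.K00588 21.9 against 7.36 FPKM, called before and after scaling. The other 3, Eucgr.K01511, Eucgr.K01515 and Eucgr.L01249, carry the methionine synthase term and averaged 0.883 FPKM or less.

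**Figure D3:**
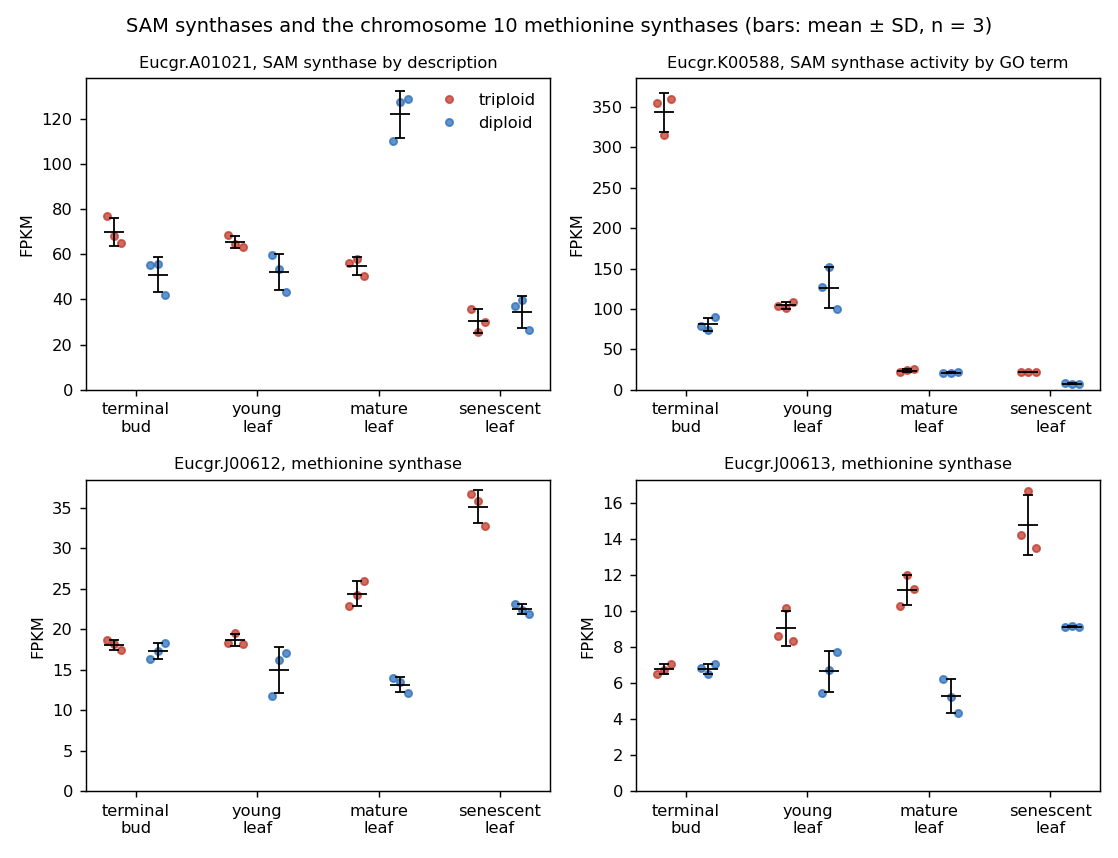
FPKM in each library of the SAM synthase Eucgr.A01021, of Eucgr.K00588, which carries the same activity by GO term, and of the chromosome 10 methionine synthases Eucgr.J00612 and Eucgr.J00613; red points are triploid, blue points diploid, and black bars the mean and SD of 3 libraries. Eucgr.A01021 peaks in diploid mature leaves (122 FPKM), Eucgr.K00588 in triploid buds (343 FPKM), and the pair in triploid senescent leaves (35.1 and 14.8 FPKM).

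Counts of called members are set here beside the share of all genes called, both over genes that passed the filter (19174 in all). In buds, of the 7 members tested other than Eucgr.A02126, 3 were called higher in the triploid (Eucgr.H02678, Eucgr.D00281 and Eucgr.A01021) and 1 lower (Eucgr.L02766). There 48.8% of all genes were called either way, 14% higher and 34.9% lower. The members' median difference was 0.23, against −0.18 over all genes. In leaves 8 members were tested. In young leaves 2 of these were higher and 1 lower, where 23.4% of all genes were called, 11.4% higher and 11.9% lower. In mature leaves 3 were higher and 2 lower, where 64.9% of all genes were called, 42.4% higher and 22.6% lower, and in senescent leaves 6 were higher and 1 lower, where 60.1% of all genes were called, 40.1% higher and 20% lower. The members' median difference was 0.24 in mature leaves and 0.66 in senescent leaves, against 0.20 and 0.17 over all genes. After scaling 5 were higher and 1 lower in buds, where 46% of all genes were called, 3 higher and 1 lower in young leaves, where 23.3% were, 3 higher and 3 lower in mature leaves, where 63.9% of all genes were called, and 4 higher and 2 lower in senescent leaves, where 59.8% were. With so large a share of all genes called, the number of members called in leaves says little of the members. Eucgr.L02766, which passed the filter only through the diploid, is among the lower ones in each of these counts; it had to differ to be tested at all and adds nothing to them.

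**Figure D4:**
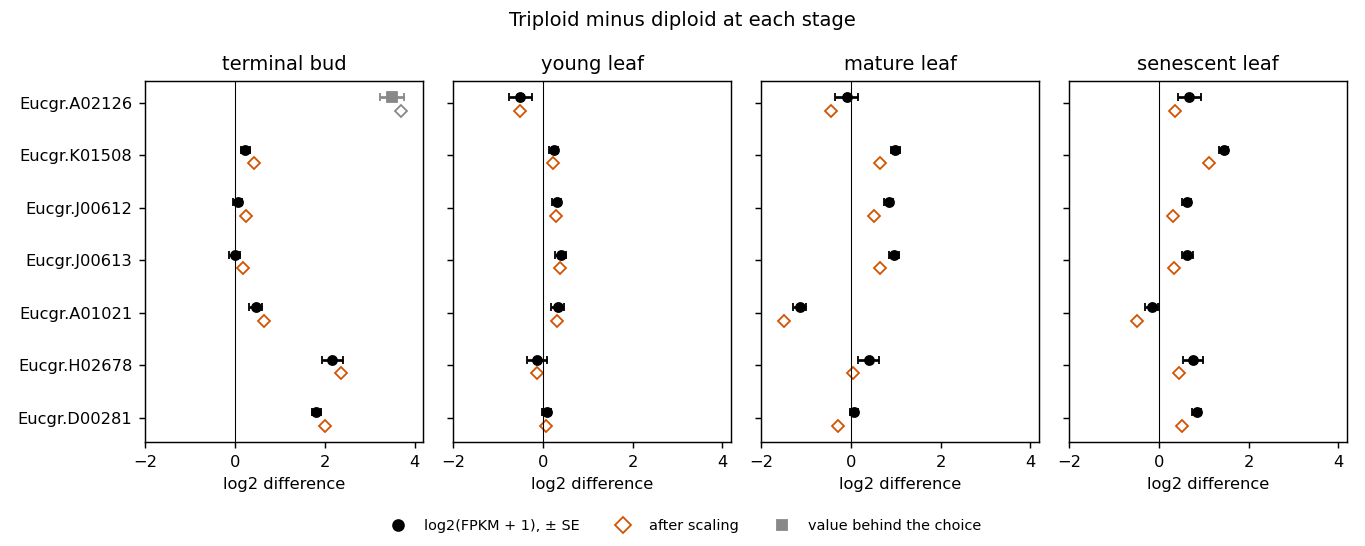
Difference between triploid and diploid on the log2(FPKM + 1) scale, with its standard error, for 7 members at each stage, before (filled) and after (open) scaling; positive is higher in the triploid, and the grey square is the value for which Eucgr.A02126 was chosen. In buds Eucgr.H02678 and Eucgr.D00281 lie at 2.17 and 1.81, and in mature leaves Eucgr.A01021 lies at −1.14 while Eucgr.K01508 lies at 0.99.

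Between buds and young leaves the SAH hydrolases moved in opposite directions in the 2 ploidies. Eucgr.H02678 fell by 1.32 on the log2 scale in triploid young leaves relative to triploid buds (SE 0.23, adjusted p = 3.1e-05 with limma) and rose by 0.98 ± 0.23 in diploid young leaves relative to diploid buds (adjusted p = 0.00096). That rise was not called when only the 2 diploid groups were fitted (adjusted p = 0.058). Eucgr.D00281 fell by 0.86 in the triploid (SE 0.10, adjusted p = 1.7e-07) and rose by 0.85 ± 0.10 in the diploid (adjusted p = 3.5e-07). Tested as differences between the ploidies, these were −2.30 ± 0.32 and −1.71 ± 0.14 (adjusted p = 2.4e-05 and 1.7e-08 with limma), and both held after scaling. For Eucgr.A02126 the same steps were −1.78 in the triploid and 2.22 in the diploid, as a description. Eucgr.K01508 rose by a like amount in both, 0.65 ± 0.10 and 0.64 ± 0.10. In this step 4 of the 7 members tested other than Eucgr.A02126 were called in the triploid, where 68.8% of all genes were. In the diploid 4 were called, where 60.1% were. Apart from Eucgr.L02766, whose triploid level was 0 at both stages, the change differed between ploidies for these SAH hydrolases alone of the members counted, where 26% of all genes were called.

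From young to mature leaves both abundant SAH hydrolases fell in both ploidies, Eucgr.D00281 by 1.29 in the triploid and 1.27 in the diploid, and Eucgr.H02678 by 1.12 and 1.65 on the log2 scale. For Eucgr.D00281 the difference between these changes was called after scaling (−0.36, adjusted p = 0.028 with limma) and with DESeq2 (−0.39, adjusted p = 0.011). For Eucgr.H02678 it was 0.53 and not called in the main fit, but was called with only the compared groups fitted (adjusted p = 0.0074 with limma). The SAM synthase Eucgr.A01021 rose by 1.22 ± 0.15 in the diploid (adjusted p = 1.5e-07 with limma) and was not called in the triploid (−0.25 ± 0.15, adjusted p = 0.14), a difference of −1.47 ± 0.21 (adjusted p = 1.1e-05). Eucgr.K01508 fell by 0.62 in the diploid and changed by 0.13 in the triploid, a difference of 0.75 ± 0.14 (adjusted p = 0.00017 with limma; 0.41 after scaling, adjusted p = 0.006). The diploid fall of Eucgr.K01508 itself was lost after scaling (−0.10, adjusted p = 0.26). Of the 8 members tested 2 were higher and 3 lower in triploid mature leaves, where 69.7% of all genes were called. In diploid mature leaves 1 was higher and 6 lower, where 76.6% were. After scaling the diploid count was 2 higher and 3 lower, where 70.3% of all genes were called, and Eucgr.J00613 turned (−0.29 before, 0.15 after). The change differed between ploidies for 4, where 51.1% of all genes were called. After scaling it differed for 3, with 1 higher and 2 lower in the triploid, and the share of all genes after scaling is not given here.

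From mature to senescent leaves Eucgr.J00612 and Eucgr.J00613 rose in both ploidies, by 0.51 and 0.37 in the triploid and by 0.73 and 0.70 in the diploid. Eucgr.K01508 fell by 0.68 in the triploid and 1.13 in the diploid, and the difference of 0.45 ± 0.14 (adjusted p = 0.019 with limma) was lost without triploid senescent leaf library 1 or diploid senescent leaf library 3 (adjusted p 0.054 and 0.062). Eucgr.A01021 fell by 0.84 in the triploid and 1.82 in the diploid (difference 0.97 ± 0.21, adjusted p = 0.0013 with limma). Eucgr.D00281 fell by 0.28 in the triploid (adjusted p = 0.021) and 1.04 in the diploid, a difference of 0.76 ± 0.14 (adjusted p = 0.00031 with limma). The triploid fall of Eucgr.D00281 was lost without triploid mature leaf library 1 or 2 or triploid senescent leaf library 2 or 3 (adjusted p 0.057, 0.075, 0.051 and 0.088). In this step 5 of the 8 members tested were called in each ploidy, where 61.1% of all genes were called in the triploid and 57.7% in the diploid. Differences between ploidies were called for 3, where 25.7% of all genes were.

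The remaining 4 methionine synthase copies had reads almost only in the diploid. Eucgr.K01516 (chromosome 11, 18580276 to 18583704) had 0 reads in the 12 triploid libraries, against 13 to 71 reads in each of the 10 diploid libraries with counts, 338 in all. Eucgr.L02116, on an unplaced scaffold, had 0 reads in the triploid, against 255 over 9 of 10 diploid libraries, and Eucgr.L02470, on another scaffold and described as partial, had 0, against 126 over 8 of 10. Eucgr.L02766, also on a scaffold, had 4 reads in 1 triploid senescent leaf library and 0 in the other 11, against 26 to 121 reads in each diploid library, 646 in all. Relative to total reads, with 3 counts over all triploid libraries as the floor, Eucgr.K01516 was at least 117-fold lower in the triploid, Eucgr.L02116 at least 88.4-fold lower and Eucgr.L02470 at least 43.7-fold lower. For Eucgr.L02766 the diploid to triploid ratio was 168 (exact 95% interval 65.3 to 619). These bounds cover counting error only and do not allow for the shift shared by most genes.

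At FPKM these copies were minor even in the diploid. Eucgr.K01516 had 0.049 to 0.454 FPKM over the 12 diploid libraries. Eucgr.L02766, the highest, had 5.63, 4.28 and 5.62 FPKM in diploid buds, against 0 in all 3 triploid bud libraries, and 1.20 to 3.96 FPKM in the diploid leaves. Beside Eucgr.K01516 on chromosome 11, Eucgr.K01515 (starting at 18535968), with the same activity by GO term, had reads in 11 of 12 triploid libraries and 7 of 10 diploid ones, 2447 reads against 688. The abundant Eucgr.K01508 lies in the same stretch of chromosome 11, so copies with and without triploid reads stood close together there.

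**Figure D5:**
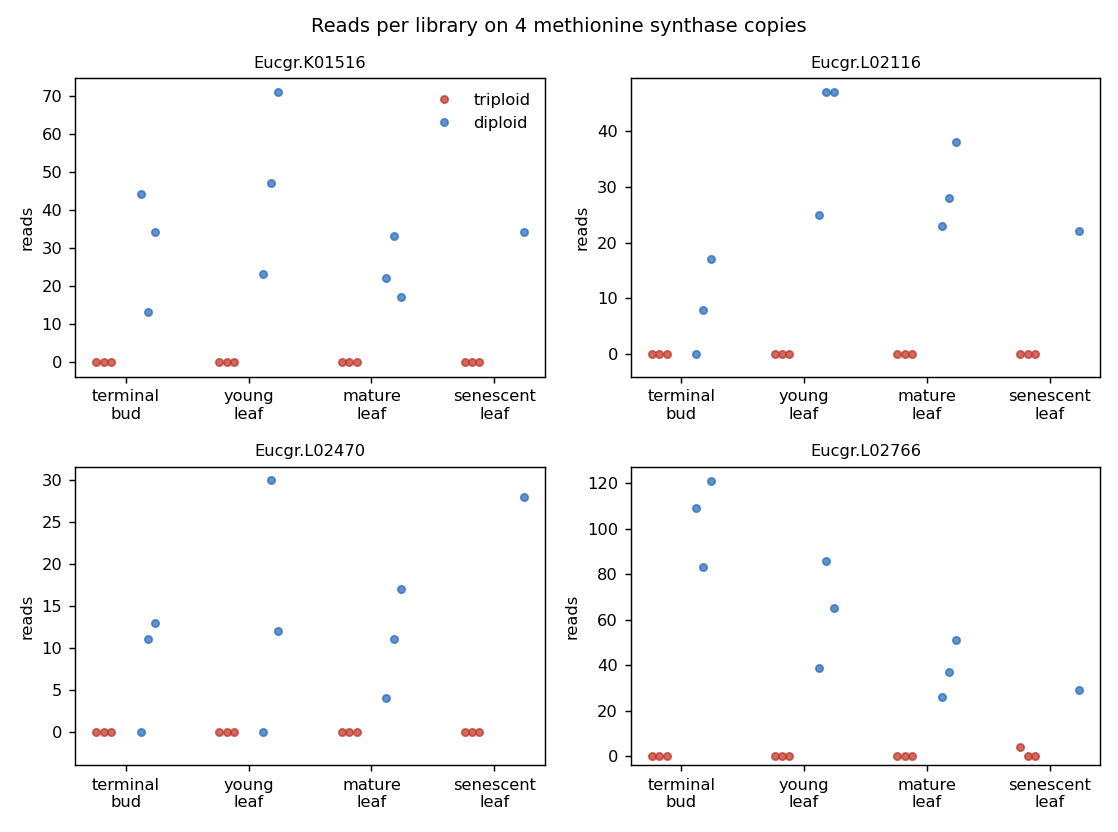
Reads per library on the methionine synthase copies Eucgr.K01516, Eucgr.L02116, Eucgr.L02470 and Eucgr.L02766, by stage, with triploid libraries in red and diploid libraries in blue; diploid senescent leaves have counts for 1 library. All triploid points lie at 0 except 1 senescent leaf library with 4 reads on Eucgr.L02766, while diploid libraries reach 71, 47, 30 and 121 reads.

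The enzymes around the cycle were read from lists made by description. Adenosine kinase, 1 gene (Eucgr.K01249), removes the adenosine that SAH hydrolase releases. It had 433, 370 and 382 FPKM in triploid buds, against 146, 149 and 206 FPKM in diploid buds (1.25 ± 0.12, adjusted p = 1.8e-08 with limma), was lower in young leaves (−0.34, adjusted p = 0.037) and higher in senescent leaves (0.71, adjusted p = 1.7e-05). Of 9 one-carbon folate enzymes, which supply the methyl group, 3 were higher and 0 lower in triploid buds, 1 higher and 2 lower in young leaves, and 7 higher with 0 lower in both mature and senescent leaves. The shares of all genes called higher, given above, were 14%, 11.4%, 42.4% and 40.1%. The median differences of the list were 0.13, 0.00, 0.58 and 0.70 at the 4 stages, and after scaling 5 were higher and 0 lower in buds and 4 higher and 1 lower in mature leaves. Eucgr.H02679, serine hydroxymethyltransferase 4, which carries the next identifier after Eucgr.H02678 and starts at 36451116 on chromosome 8, had 792, 672 and 777 FPKM in triploid buds, against 168, 173 and 261 FPKM in diploid buds (1.92 ± 0.13, adjusted p = 1.5e-10 with limma), with no overlap. The most abundant of this list was the mitochondrial Eucgr.I00580, at 29.7 FPKM in triploid buds against 40.4 FPKM in diploid buds, which was not called there (−0.42 ± 0.20, adjusted p = 0.085). In leaves the largest called differences of the list were those of the formate-tetrahydrofolate ligase Eucgr.B02610 in young leaves (0.51), the serine hydroxymethyltransferase Eucgr.F03735 in mature leaves (1.07) and the methylenetetrahydrofolate reductase Eucgr.A00395 in senescent leaves (1.36).

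Upstream, of the 3 genes of methionine synthesis from aspartate and cysteine, 1 was higher in triploid buds, none was called in young leaves, 3 were higher in mature leaves, and 2 were higher and 1 lower in senescent leaves. Of all genes 14%, 11.4%, 42.4% and 40.1% were called higher at these stages, and 34.9%, 11.9%, 22.6% and 20% lower. After scaling 2 were higher in buds, young leaves and mature leaves each, and 1 was higher and 1 lower in senescent leaves. The cystathionine gamma-synthase Eucgr.I01959, the enzyme that commits carbon to methionine, averaged 200 FPKM in triploid buds and 115 FPKM in diploid buds (0.80 ± 0.06, adjusted p = 1.1e-09 with limma). The aspartokinase and homoserine dehydrogenase Eucgr.F02952 was at 16.5 FPKM in triploid mature leaves and 4.499 FPKM in diploid ones (1.68 ± 0.14, adjusted p = 3.4e-09 with limma), and differed by 1.35 in senescent leaves. Among 5 genes of the S-methylmethionine cycle and methionine breakdown, 4 were tested. Of these 2 were higher in triploid buds, 1 was lower in young leaves, 3 were higher and 1 lower in mature leaves, and 4 were higher in senescent leaves. The shares of all genes are those just given. After scaling 3 were higher in buds, 0 were called in young leaves, and 2 were higher and 1 lower in mature leaves. The methionine gamma-lyase Eucgr.D01681, which breaks methionine down, had 128, 152 and 122 FPKM in triploid senescent leaves, against 13.4, 9.28 and 11.5 FPKM in diploid ones (3.45 ± 0.12, adjusted p = 9e-16 with limma), and differed by 1.62 in mature leaves. The homocysteine S-methyltransferase Eucgr.G02323, a further route to methionine, averaged 71.9 FPKM in triploid buds and 21.9 FPKM in diploid buds (1.69 ± 0.21, adjusted p = 1.6e-06 with limma), and was lower in triploid young leaves (−0.60, adjusted p = 0.046).

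The methylthioadenosine (Yang) cycle, which recovers methionine from the by-product of ethylene and polyamine synthesis, was represented by 4 genes. In triploid buds 3 were lower, where 34.9% of all genes were, and 1 was lower in young leaves, where 11.9% were. In mature leaves 3 were higher and 1 lower, where 42.4% of all genes were higher and 22.6% lower. In senescent leaves 3 were higher, where 40.1% of all genes were. Its nucleosidase Eucgr.G01748 averaged 25.2 FPKM in triploid buds and 38.4 FPKM in diploid buds (−0.57 ± 0.11, adjusted p = 0.00023 with limma), and differed by −0.46 in young leaves. The methylthioribose kinase Eucgr.I01100 differed by −1.44 in buds, by 2.12 in mature and by 1.24 in senescent leaves. Of 10 genes of the ethylene and polyamine branches 6 were tested, with 2 higher and 2 lower in buds (3 and 0 after scaling), 1 higher and 1 lower in young leaves, 2 higher and 1 lower in mature leaves, and 3 higher and 1 lower in senescent leaves (1 and 2 after scaling). Of all genes 14%, 11.4%, 42.4% and 40.1% were called higher at these stages, and 34.9%, 11.9%, 22.6% and 20% lower. The spermidine synthase Eucgr.H02622 differed by 0.60 in buds, and the nicotianamine synthase Eucgr.L00264, which joins SAM molecules into a metal chelator, by 1.09 in buds, 0.71 in both young and mature leaves and −1.46 in senescent leaves.

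Among the methyltransferases that consume SAM, those of lignin were counted first. Of 20 genes 14 were tested, and 3 were higher and 6 lower in triploid buds, 1 higher and 7 lower in young leaves, 2 higher and 7 lower in mature leaves, and 5 higher and 4 lower in senescent leaves. Of all genes 14%, 11.4%, 42.4% and 40.1% were called higher at these stages, and 34.9%, 11.9%, 22.6% and 20% lower. After scaling the counts higher and lower were 4 and 5, 1 and 8, 2 and 8, and 4 and 5. The caffeic acid O-methyltransferase Eucgr.E03875, the most abundant, averaged 5336 FPKM in triploid buds and 1332 FPKM in diploid buds (2.02 ± 0.30, adjusted p = 9.5e-06 with limma). Another gene with that description, Eucgr.H00353, averaged 897 FPKM in triploid buds and 158 FPKM in diploid buds (2.52 ± 0.17, adjusted p = 1.9e-10 with limma), whereas Eucgr.G00020 was lower in triploid young, mature and senescent leaves (−1.34, −2.35 and −2.26). Of 6 methyltransferases of DNA, lipid and chlorophyll, 1 was higher and 1 lower in buds, 1 higher in young leaves, and 4 higher in mature and in senescent leaves. The shares of all genes are those given for the lignin genes. After scaling 2 were higher and 1 lower in buds, 2 higher in young leaves, 4 higher in mature leaves, and 3 higher and 1 lower in senescent leaves. The magnesium protoporphyrin IX methyltransferase Eucgr.G02043 of chlorophyll synthesis averaged 105 FPKM in triploid mature leaves and 72.4 FPKM in diploid ones and was not called there (0.53 ± 0.26, adjusted p = 0.083 with limma). The phosphoethanolamine methyltransferase Eucgr.B00946 differed by −0.59 in buds and 0.81 in mature leaves, the DNA methyltransferase Eucgr.D02616 by 0.45 in young leaves, and Eucgr.H04095, another DNA methyltransferase, by 0.76 in senescent leaves.

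The genes most like Eucgr.A02126 were sought among 12588 genes averaging 5 FPKM or more, members left out. Over the 8 group means of log2(FPKM + 1) these were the mitochondrial porin Eucgr.I02018 (Pearson r = 0.978), the dihydroxy-acid dehydratase Eucgr.H02826 (0.968), the cytochrome b5 reductase Eucgr.K01543 (0.96), the glucose-6-phosphate translocator Eucgr.F00969 (0.958) and Eucgr.L00752 (0.955). Eucgr.I02018 had 192, 215 and 196 FPKM in triploid buds, against 33.1, 40.0 and 220 FPKM in diploid buds. Eucgr.L00752 had 88.4, 93.8 and 55.9 FPKM, against 22.5, 26.1 and 90.2 FPKM. For both genes diploid library 3 thus reached the triploid range or above. Among members Eucgr.H02678 was as close to Eucgr.A02126, at 0.975, and Eucgr.D00281, at 0.953, lay just below the last of these genes. Over the 24 libraries the closest were Eucgr.H02826 (0.956), the aldehyde dehydrogenase Eucgr.C03859 (0.949), the serine hydroxymethyltransferase Eucgr.H02679 (0.937), Eucgr.F00969 (0.935) and the isoflavone reductase-like Eucgr.E00003 (0.931). Such values share the 8 groups and their libraries, hold the bud values behind the choice of Eucgr.A02126, and carry no p. Eucgr.H02826, an enzyme of branched-chain amino acid synthesis, averaged 28.1 FPKM in triploid buds and 3.17 FPKM in diploid buds. It was found by likeness to Eucgr.A02126, whose profile holds the bud difference behind its choice. The bud difference of Eucgr.H02826 is therefore no separate result.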

How the data were processed

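The authors deposited FPKM values for 24 libraries and read counts per gene. The submitters' processing notes name HISAT2 2.0, StringTie 1.3.0 and Bowtie 0.12.2, without their roles, and a mouse build, although the gene names belong to *E. grandis*; how reads matching several copies were treated is not given in the sources used here. Counts of 22 libraries were used and 2 columns of counts matching no library were not, so diploid senescent leaves have counts for 1 library. FPKM of 0.0001 or less was taken as 0. The test was limma 3.58.1 (with trend) on log2(FPKM + 1), fitting 8 group means on the 19174 genes averaging 0.5 FPKM or more, with Benjamini-Hochberg adjustment over all of them and calls below 0.05. This scale understates the change of low genes. Differences are triploid minus diploid or later minus earlier stage, ± SE. Scaling divided each library by its median ratio to the mean log profile over 11530 genes. Alternatives were edgeR 4.0.16 and DESeq2 1.42.0 on the counts, where the lone diploid senescent leaf library is assumed to vary like the other groups, other filters and pseudocounts, fits on fewer groups, a replicate block and leaving out libraries. Libraries of a group differed by more than counting noise (mean chi-square per gene at least 17.6). Scripts were tested on simulated data.

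Members averaging 10 FPKM or more, or with a called ploidy difference, were described by group and the rest by range and count; in each list the most abundant gene and the largest called difference at each stage were named. Genes found by GO term and the values of Eucgr.H02826 were chosen after the values were seen. Members and lists were chosen with earlier results of these data known. R 4.3.3 and Python 3.11.15 were used.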

Additional observations from a re-analysis of the deposited data

Results flagged for a closer look

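For 6 members a stage change differed between triploid and diploid by a test of the difference itself (limma, log2, triploid change minus diploid change). From buds to young leaves these were Eucgr.D00281 (−1.71, adjusted p = 1.7e-08) and Eucgr.H02678 (−2.30, adjusted p = 2.4e-05). The value for Eucgr.L02766, 0.69, is no such test: it had 0 reads in the triploid libraries of both stages, so it is the diploid change alone, and its call was lost with a pseudocount of 0.1, with edgeR, with DESeq2, on fitting only the groups compared and without any 1 of 9 of the 12 libraries involved. From young to mature leaves they were Eucgr.A01021 (−1.47, adjusted p = 1.1e-05), Eucgr.J00612 (0.53, adjusted p = 0.0047), Eucgr.J00613 (0.57, adjusted p = 0.0085) and Eucgr.K01508 (0.75, adjusted p = 0.00017). The shift shared by most genes in this step was 0.34, and after scaling Eucgr.J00612 and Eucgr.J00613 stood at 0.21 and 0.28 and were no longer called (adjusted p 0.18 and 0.16). Eucgr.D00281, not called in this step before scaling, was called after it (−0.36, adjusted p = 0.028). From mature to senescent leaves they were Eucgr.D00281 (0.76, adjusted p = 0.00031), Eucgr.A01021 (0.97, adjusted p = 0.0013) and Eucgr.K01508 (0.45, adjusted p = 0.019).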

How the results depend on the processing

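Counts of called members moved most with the test. They are given without the shares of all genes called under each setting, so they show only how the counts moved. In buds 7 were called with edgeR and 8 with DESeq2, against 4 with limma. In young leaves 5 were called with no filter, 5 with edgeR, 6 with DESeq2 and 1 when only the groups compared were fitted, against 3, and in mature leaves 8 with edgeR and 8 with DESeq2, against 5. edgeR and DESeq2 also test copies near 0 that have reads only in the diploid and so had to differ. Fitting only the groups compared gave 2 against 4 for diploid young leaves against buds and 5 against 3 for the ploidy difference in the step to senescent leaves, and edgeR gave 2 against 4 for that in the step to mature leaves. These causes were not tested.

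Where either value was called, directions turned in few cases. For Eucgr.D00281 in mature leaves the ploidy difference was −0.28 after scaling and −0.33 with DESeq2. For Eucgr.J00612 the step to young leaves in the triploid was −0.31 after scaling, −0.24 with edgeR and −0.34 with DESeq2, and the step to mature leaves in the diploid was 0.32, 0.30 and 0.39. For Eucgr.J00613 that diploid step was 0.15, 0.15 and 0.24. For Eucgr.K01508 the ploidy difference in the step to young leaves was −0.23 with DESeq2.

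Leaving out 1 library at a time gave 3 to 5 called members in buds, 1 to 5 in young leaves, 5 to 6 in mature leaves and 6 to 7 in senescent leaves. In the step to young leaves it gave 3 to 4 (triploid), 4 to 5 (diploid) and 2 to 4 (difference), in the step to mature leaves 4 to 5, 5 to 8 and 4 to 5, and in the step to senescent leaves 3 to 5, 5 to 6 and 2 to 4. The lowest young leaf count, 1, came without triploid young leaf library 2 and without diploid young leaf library 1, and the highest, 5, without diploid young leaf library 3. The shares of all genes called in these fits are not given beside these counts. Over all other settings 780 values stayed on the same side of the threshold, 31 gained a call, 39 lost one and 12 turned. A turn was counted only where either value was called, so the 780 can include uncalled values that turned. With the replicate number as a block all 13 member counts were equal to those without it (4 in buds). Same-numbered triploid and diploid libraries of a stage correlated at −0.204 to 0.103 over 12 pairs, so the numbers showed no pairing between the ploidies. Whether same-numbered libraries of different stages within a ploidy came from the same plant was not tested. Depth limits what can be said of the 4 members under 0.5 FPKM.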
